A study of Mus musculus with 12 samples.

Results

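The Hox genes encode homeodomain transcription factors that lie in 4 clusters, Hoxa, Hoxb, Hoxc and Hoxd, and those measured here comprised every probe whose gene symbol was one of these names followed by a number between 1 and 13. Antisense and opposite-strand transcripts of the clusters were left out. The rule found 57 probes for 38 genes among the 45281 probes and 19057 named genes of the array, with 10 genes of the Hoxa cluster, 10 of Hoxb, 9 of Hoxc and 9 of Hoxd.

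The kidneys came from CD-1 mouse embryos and were compared in 4 groups of 3 arrays, Pkd1-/- mutants at E17.5, WT at E17.5, Pkd1-/- mutants at E14.5 and WT at E14.5. Pkd1 encodes polycystin-1, the gene most often mutated in dominant polycystic kidney disease, and the mutants are constitutive nulls that develop kidney cysts before birth. Total RNA of each sample was labelled with biotin and hybridised to an Illumina mouse BeadChip, which reports 1 intensity and 1 detection p per probe. Each array held 1 pair of kidneys, per the study's methods. Mutants and WT were littermates, and the labels pair no mutant with a WT embryo.

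Hox genes are numbered by their place in the cluster, and genes of the same number in different clusters are paralogs with closely related homeodomains. Low-numbered (3′) genes are generally activated first and pattern anterior regions of the embryo, and high-numbered (5′) genes are activated later and pattern posterior regions. The metanephric kidney forms at a posterior axial level, where the genes of paralog group 11 act together in mice with Eya1 and Pax2 to switch on Six2 and Gdnf in the nephron progenitors of the cap mesenchyme. Genes of paralog group 10 are required in the renal stroma, and Hoxb7 is a gene of the Wolffian duct and ureteric bud. Retinoic acid and Cdx factors activate the clusters, Polycomb complexes hold them silent, and Pbx, Meis and Pknox proteins of the TALE class bind DNA together with Hox proteins.

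RefSeq promoter windows, 250 bases before to 50 bases after the transcription start on GRCm38.p6, were matched by symbol to 22 of the 38 genes. Of the 7 Hox genes called with age below, 5 had a window, and 4 windows are printed as examples. They belong to Hoxd12 and Hoxa2, called lower at E17.5 in both genotypes, and to Hoxa5, called lower in WT. The last is that of Hoxd10, a close neighbour of Hoxd12 in the cluster for which no difference was called. Capitals mark matches, on either strand, to the letters TATAAA for the core promoter box, TGATTNAT for a joint Hox and Pbx site, TTTATG for a posterior Hox or Cdx site, TAATTA for a homeodomain core, or AGGTCA for a nuclear receptor half-site such as those of retinoic acid response elements.
Hoxd12, chr2:74674763-74675062, plus strand: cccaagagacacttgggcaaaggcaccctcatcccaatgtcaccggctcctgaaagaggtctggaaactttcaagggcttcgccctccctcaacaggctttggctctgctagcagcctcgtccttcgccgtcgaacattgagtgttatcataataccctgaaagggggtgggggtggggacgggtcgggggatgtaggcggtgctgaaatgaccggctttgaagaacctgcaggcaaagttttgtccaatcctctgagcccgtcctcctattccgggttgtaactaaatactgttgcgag
Hoxa2, chr6:52164782-52165081, minus strand: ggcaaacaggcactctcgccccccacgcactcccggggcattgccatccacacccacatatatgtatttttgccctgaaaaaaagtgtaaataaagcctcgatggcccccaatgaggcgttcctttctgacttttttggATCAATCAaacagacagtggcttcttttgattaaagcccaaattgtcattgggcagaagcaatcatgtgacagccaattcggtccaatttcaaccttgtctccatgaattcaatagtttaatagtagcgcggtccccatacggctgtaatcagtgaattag
Hoxa5, chr6:52204538-52204837, minus strand: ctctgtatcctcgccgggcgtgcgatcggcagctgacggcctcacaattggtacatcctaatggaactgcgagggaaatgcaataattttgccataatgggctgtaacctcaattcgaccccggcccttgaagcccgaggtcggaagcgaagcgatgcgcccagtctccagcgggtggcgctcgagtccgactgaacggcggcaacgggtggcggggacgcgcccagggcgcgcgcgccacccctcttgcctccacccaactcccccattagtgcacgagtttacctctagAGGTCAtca
Hoxd10, chr2:74691641-74691940, plus strand: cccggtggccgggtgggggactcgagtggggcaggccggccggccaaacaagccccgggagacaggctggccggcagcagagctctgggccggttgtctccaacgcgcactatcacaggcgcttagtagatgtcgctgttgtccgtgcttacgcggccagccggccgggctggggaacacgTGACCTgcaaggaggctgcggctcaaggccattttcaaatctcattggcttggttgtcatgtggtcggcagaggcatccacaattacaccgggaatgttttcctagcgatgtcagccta

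The Hoxd12 window held none of the 5 sets of letters. The Hoxa2 window held 1 match to TGATTNAT, on the opposite strand from base -111, where base 1 is the transcription start, and the Hoxa5 window held 1 match to AGGTCA from base 42. The Hoxd10 window held 1 match to AGGTCA, on the opposite strand from base -69. Over the 24 windows of the 22 genes (Hoxa10 and Hoxd11 had 2 each), AGGTCA stood in 7 (29.2%, against 16.3% of 32851 windows of all genes) and TTTATG in 5 (20.8%, against 11.9%). TATAAA stood in 4 (16.7%, against 13.6%), TGATTNAT in 2 (8.33%, against 3.22%) and TAATTA in 2 (8.33%, against 5.29%). TTTATG overlaps the forms of TGATTNAT in which N is T and a G follows. The windows of the Hox genes had a median GC content of 57.7% (39.7% to 81%), against 52.7% over all windows, and a median of 14.5 CpG dinucleotides, against 7. These matches are descriptions of letters in a window and were set against no binding data.

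Of the 38 Hox genes, 26 were detected by the rule of a detection p under 0.05 on 3 or more of the 12 arrays, through 34 of the 57 probes, and these 26 are the genes tested. Detection was most complete in the Hoxa cluster, where 9 of 10 genes passed (Hoxa2, Hoxa3, Hoxa4, Hoxa5, Hoxa7, Hoxa9, Hoxa10, Hoxa11 and Hoxa13). In the Hoxb cluster 7 of 10 genes passed (Hoxb2, Hoxb3, Hoxb4, Hoxb5, Hoxb6, Hoxb7 and Hoxb9), and in the Hoxd cluster 6 of 9 (Hoxd3, Hoxd4, Hoxd8, Hoxd9, Hoxd10 and Hoxd12). The Hoxc cluster had the fewest, with 4 of 9 (Hoxc4, Hoxc6, Hoxc9 and Hoxc10). On all 12 arrays, 7 genes of Hoxa, 7 of Hoxb, 3 of Hoxc and 6 of Hoxd were detected. A gene passed if any of its probes did, and Hoxa had 19 probes, Hoxb 15, Hoxc 11 and Hoxd 12.

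**Figure D1:**
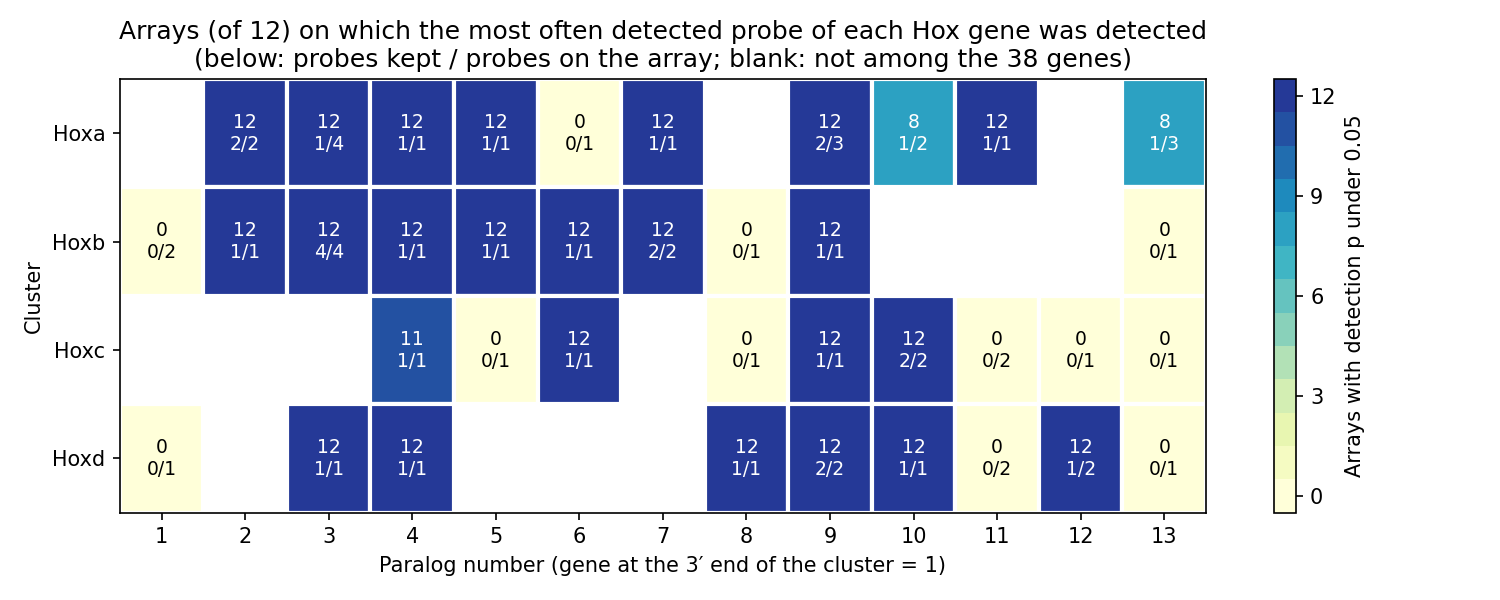
Detection of the Hox genes by cluster (rows) and paralog number (columns). The upper number and the colour give the arrays, of 12, on which the gene's most often detected probe had a detection p under 0.05, and the lower pair gives probes kept over probes measured. The genes of numbers 2 to 4 and 9 were detected in each cluster that holds them among the 38, and no gene of number 1 was.

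By paralog number, each measured gene of groups 2, 3, 4, 7, 9 and 10 was detected, and neither gene of group 1 (Hoxb1 and Hoxd1) was. Groups 11 to 13 held 9 measured genes, of which Hoxa11, Hoxa13 and Hoxd12 were detected. The 12 genes not detected were Hoxa6, Hoxb1, Hoxb8, Hoxb13, Hoxc5, Hoxc8, Hoxc11, Hoxc12, Hoxc13, Hoxd1, Hoxd11 and Hoxd13, and each of their probes was detected on 0 arrays. Hoxc11 and Hoxd11, 2 of the 3 genes of the Hox11 group, were thus not well above background with either of their 2 probes, so their levels could not be compared. An undetected probe does not show that its gene was silent, since probes of 5 genes disagreed in this way, among them Hoxd12 and Hoxa10, each with 1 probe detected and 1 on 0 arrays.

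Of the 26 genes, 23 were detected on all 12 arrays. The exceptions were Hoxc4, on 11 arrays (2 of 3 in E17.5 mutants), Hoxa13, on 8 arrays (2 of 3 in every group), and Hoxa10. Hoxa10 was detected on 2 of 3 E17.5 mutant arrays, 0 of 3 E17.5 WT arrays and all 6 E14.5 arrays, so it passed the filter mainly through the earlier age.

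The array as a whole gives the scale for these values. Between 19397 and 20290 probes (42.8% to 44.8%) were detected per array, arrays of a group correlated at 0.983 to 0.994, no arrays were identical, and the lowest log2 intensity of a detected probe lay between 5.43 and 5.57. The targeted gene, Pkd1, read 7.61, 7.76 and 7.83 (log2 intensity) in E17.5 mutants and 6.79, 6.91 and 7.59 in E17.5 WT, and 7.79, 7.36 and 7.22 in E14.5 mutants and 6.35, 6.82 and 6.81 in E14.5 WT. Its values were higher on the arrays labelled mutant (0.64 ± 0.22 SE at E17.5, adjusted p = 0.135, and 0.80 ± 0.22 at E14.5, adjusted p = 0.723), and, since the sources used here do not say where the probe lies relative to the null mutation, it does not check the labels, so groups are named as labelled.

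No Hox gene was called different between mutants and WT at E17.5, the age with cysts. The test was limma's moderated test on log2 intensities with Benjamini-Hochberg adjustment over 14882 genes and unnamed probes, and an adjusted p under 0.05 is termed called. Of all 14882 features, 3.16% were called at this age, against 0 of 26 Hox genes. These 26 do not include Hoxb8, which the paper names among transcription factors up-regulated in E17.5 mutants. The paper counted genes past 2-fold at an uncorrected p of 0.05 or less. The Hoxb8 probe was detected on 0 arrays, with a mean of 4.89 in E17.5 mutants and 4.78 in E17.5 WT, under the detection floor. At an unadjusted p under 0.05 there were 7 of 26 Hox genes, against 20.1% of all features, and in 8 of 26 (30.8%) the 3 mutant and 3 WT values did not overlap, against 24.2%. The median difference of the 26 genes was 0.10 on the log2 scale, against 0.02 over all features, with 16 genes above and 10 below 0.

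The genes furthest from 0 at E17.5 were Hoxc4, Hoxd12, Hoxd4 and Hoxb5, and these 4 were singled out after their values were seen. In all 4, E17.5 mutant replicate 12, given first below, lay furthest from WT. Hoxc4, which has a role in lymphocytes and the cervical skeleton, had values of 5.31 (not detected), 5.95 and 5.77 in mutants, against 6.08, 6.02 and 6.46 in WT, a difference of -0.51 (95% interval -0.87 to -0.16, adjusted p = 0.113). Hoxd12, a gene of distal limb and genital patterning, had 6.79, 6.25 and 6.55 in mutants, against 5.97, 6.04 and 6.10 in WT, a difference of 0.49 (0.16 to 0.83, adjusted p = 0.109). Every mutant value of Hoxd12 thus lay above every WT value, and every mutant value of Hoxc4 lay below, although neither passed the adjusted test. Hoxd4 had 11.52, 11.17 and 11.07 in mutants, against 10.71, 10.98 and 10.84 in WT, a difference of 0.41 (adjusted p = 0.0817). Hoxb5, a gene of the anterior trunk, had 11.10, 10.84 and 10.73 in mutants, against 10.37, 10.50 and 10.56 in WT, a difference of 0.41 (adjusted p = 0.111). Without replicate 12 the differences were -0.33 for Hoxc4, 0.37 for Hoxd12, 0.28 for Hoxd4 and 0.31 for Hoxb5, with adjusted p values of 0.26, 0.261, 0.181 and 0.262.

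Markers of several cell types also differed with genotype at E17.5, where 3.16% of all features were called. Of 5 tested proximal tubule markers 2 were lower in mutants, with a mean log2 intensity of 9.21 to 9.78 in mutants, against 11.18 to 11.62 in WT. Of 2 loop of Henle markers 1 was lower (10.64 to 11.30 in mutants, against 11.91 to 12.12 in WT), of 4 tested liver markers 1 was lower and of 8 tested duct markers 1 was higher. Their part in the Hox values was not tested.

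**Figure D2:**
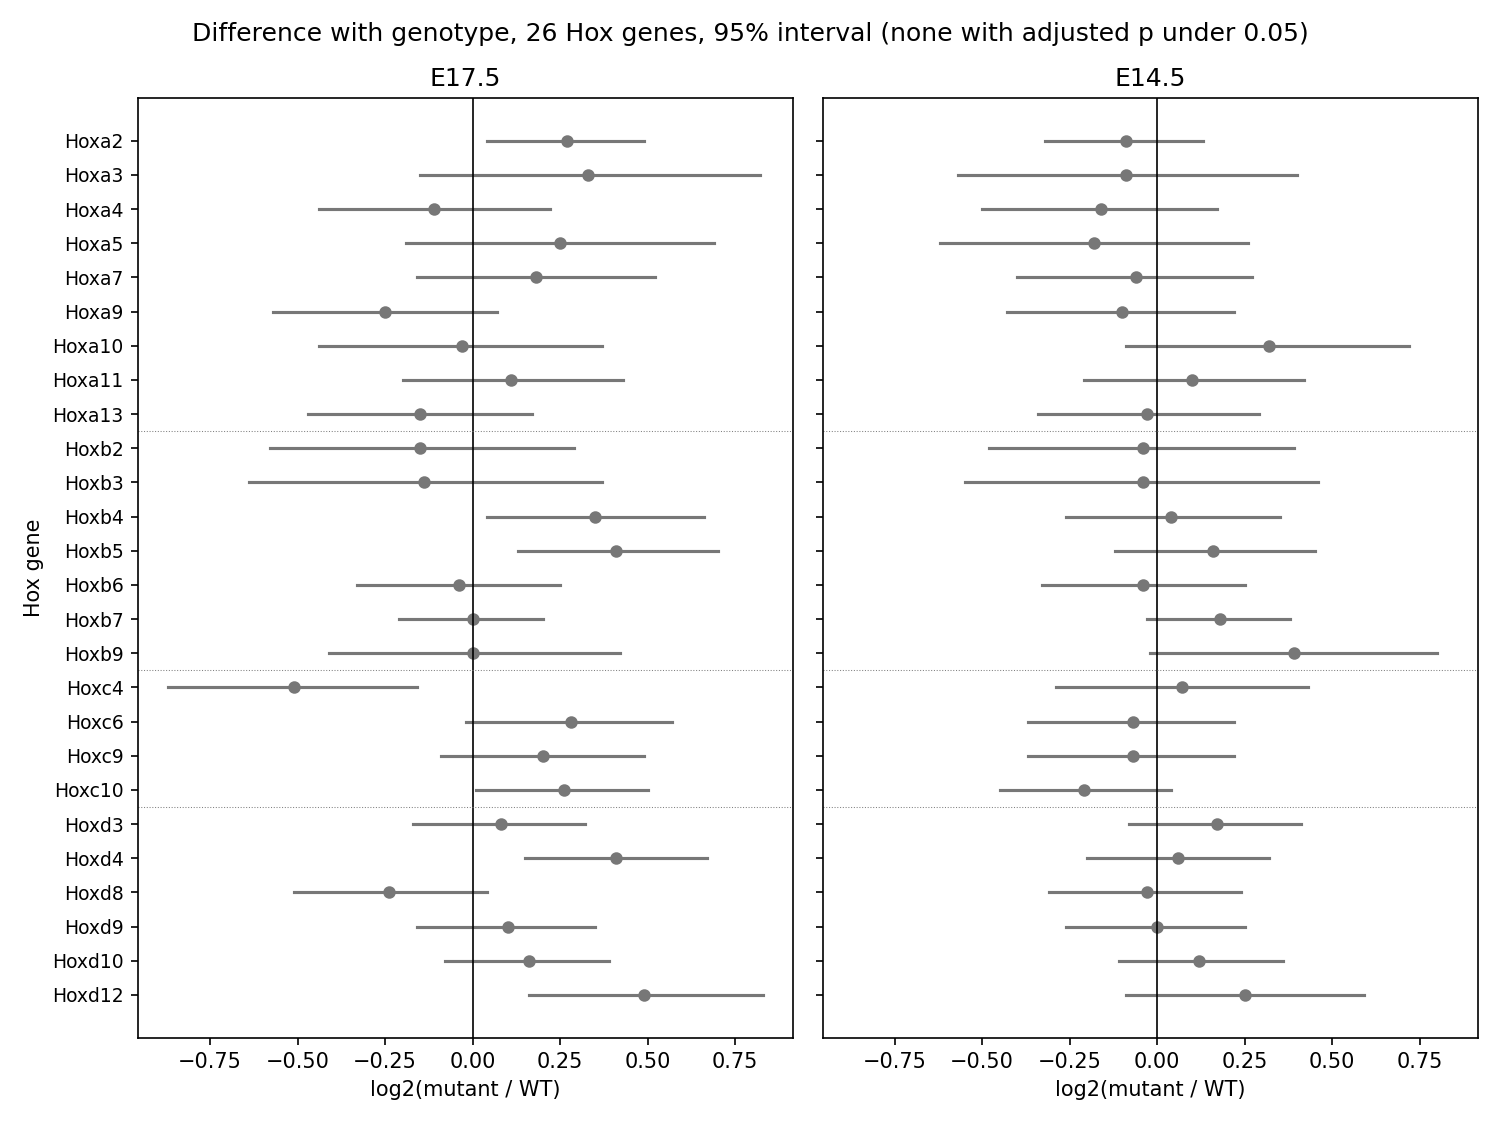
Difference between Pkd1-/- mutants and WT, as log2 mutant over WT on the horizontal axis, for the 26 Hox genes at E17.5 (left) and E14.5 (right). Points are the fitted differences of 3 against 3 arrays and bars their 95% intervals. At E17.5 the points run between -0.51 and 0.49, at E14.5 between -0.21 and 0.39, and none was called.

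At E14.5, before cysts are seen, the Hox genes of mutants and WT were closer. None of 26 was called, against 0.0538% of all features, and 0 of 26 had an unadjusted p under 0.05, against 3.2%. The differences ran from -0.21 (Hoxc10) to 0.39 (Hoxb9), with a median of -0.03 against 0 over all features, and in 5 of 26 (19.2%, against 9.12% of all features) the groups did not overlap. These were Hoxa10 and Hoxd3, with higher values in mutants, and Hoxa3, Hoxa5 and Hoxc10, with lower values. The 95% intervals of both ages reached at most 0.50 to either side of the estimate, which bounds what the 3 arrays per group could resolve.

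The difference between the genotype effects at E17.5 and E14.5 was tested directly, and 0 of 26 Hox genes were called, against 0.175% of all features. At an unadjusted p under 0.05 there were 3 of 26, against 10.7%, namely Hoxc4 (-0.58), Hoxc10 (0.46) and Hoxa2 (0.36), with adjusted p values of 0.412, 0.35 and 0.418.

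A call at E17.5 did depend on 1 array. E17.5 WT replicate 41 gave Hoxa3 a value of 7.37, against 6.59 and 6.20 on the other E17.5 WT arrays and 6.89, 7.07 and 7.20 in E17.5 mutants. Without it Hoxa3 was called higher in mutants (0.67, adjusted p = 0.0333), where all arrays gave 0.33 (adjusted p = 0.432). That array also had the highest E17.5 WT value of Hoxa5 (10.64, against 10.15 and 9.64). Hoxa3, which patterns the pharyngeal arches and thymus, had the widest spread of any Hox gene within a group, an SD of 0.60 in E17.5 WT.

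With age the Hox genes that changed were lower at E17.5. In mutants 4 of 26 (15.4%) were called, Hoxd12, Hoxa10, Hoxa9 and Hoxa2, and in WT 6 of 26 (23.1%), Hoxd12, Hoxa5, Hoxa2, Hoxc10, Hoxc9 and Hoxa10. Over all features 43.1% were called in mutants (21.7% higher and 21.4% lower at E17.5) and 43.6% in WT (20.2% higher and 23.5% lower). The counts of lower Hox genes, 4 and 6 of 26, lie near the shares for lower calls, and 0 of 26 were called higher in either genotype. That split changed with the scaling, since cyclic loess in place of quantile normalization called 2 higher and 3 lower in mutants and 1 higher and 6 lower in WT. The genes it added on the higher side were Hoxb5 (0.35) and Hoxd9 (0.32) in mutants and Hoxd8 (0.36) in WT.

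**Figure D3:**
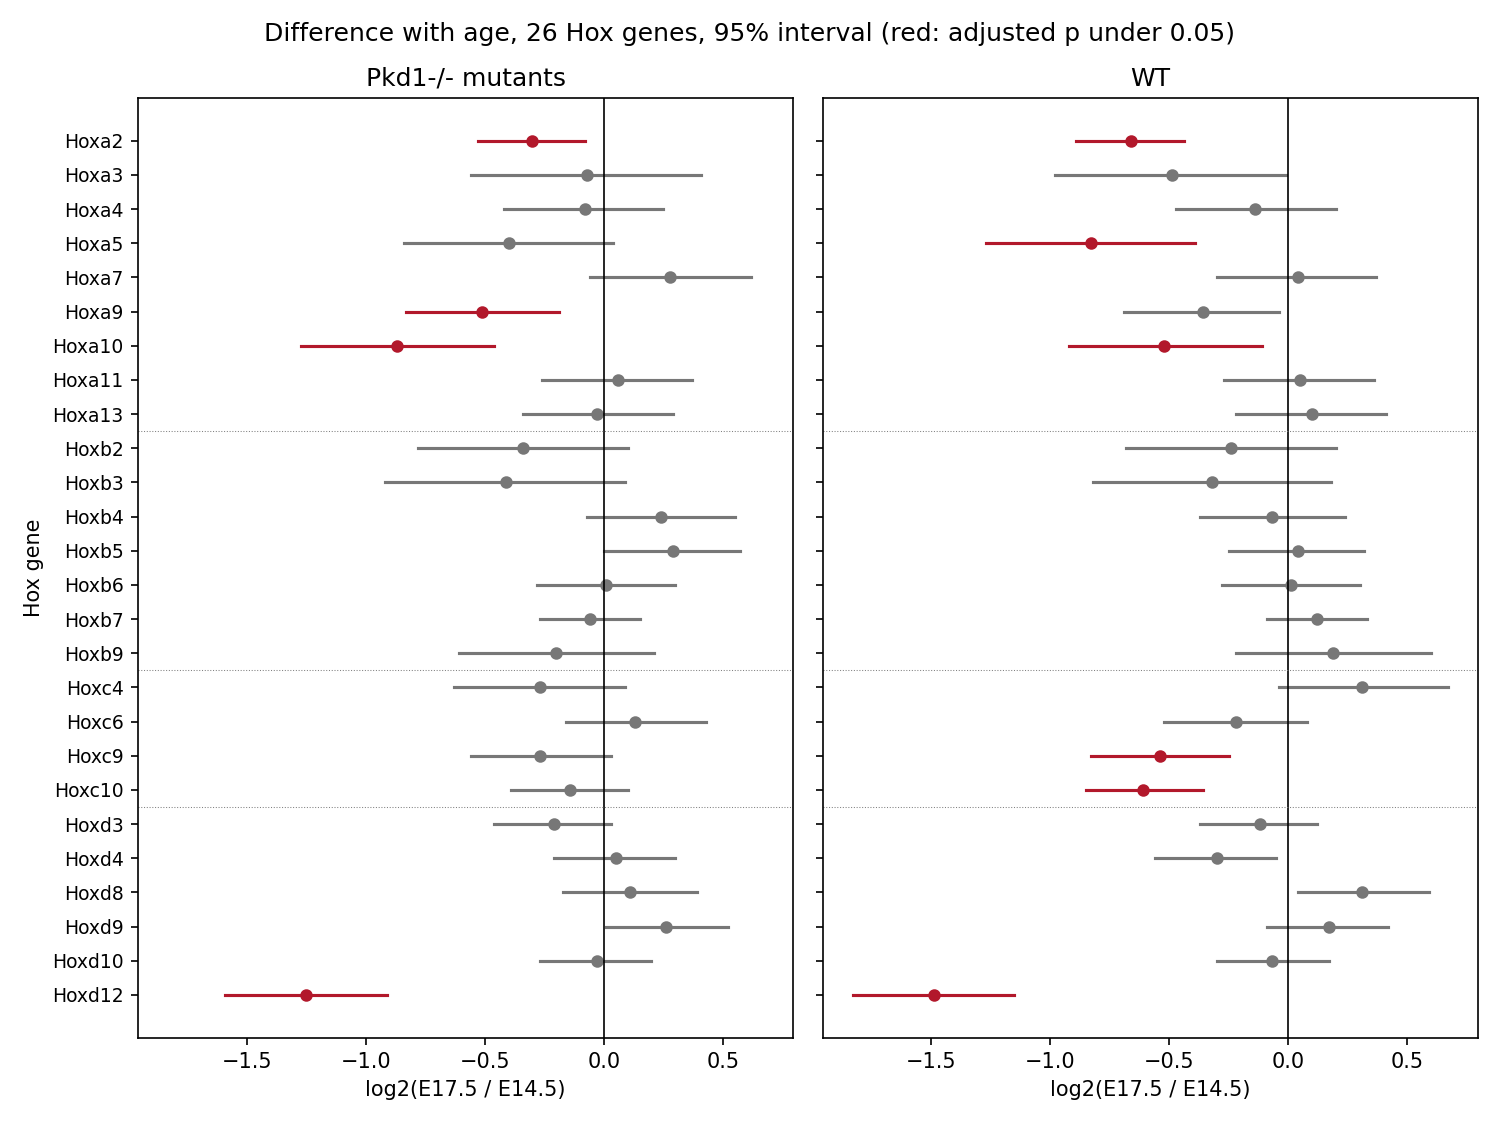
Difference with age, as log2 E17.5 over E14.5 on the horizontal axis, for the 26 Hox genes in Pkd1-/- mutants (left) and WT (right). Points are fitted differences of 3 against 3 arrays, bars their 95% intervals, and red marks an adjusted p under 0.05. Hoxd12 lies lowest in both, at -1.25 in mutants and -1.49 in WT.

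Few Hox genes had non-overlapping ages. E17.5 and E14.5 did not overlap in 7 of 26 genes in mutants (26.9%, against 56.1% of all features) and in 10 of 26 in WT (38.5%, against 53%). The median size of the difference, whatever its direction, was 0.23 on the log2 scale for Hox genes in each genotype, against 0.30 for all features in each. The median signed difference was -0.08 in mutants and -0.13 in WT, against -0.02 and -0.05 over all features.

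Hoxd12 showed the largest change with age. Its values were 6.79, 6.25 and 6.55 in E17.5 mutants, against 7.92, 7.62 and 7.78 in E14.5 mutants, and 5.97, 6.04 and 6.10 in E17.5 WT, against 7.52, 7.78 and 7.27 in E14.5 WT. The ages did not overlap in either genotype. The difference was -1.25 ± 0.15 (SE) in mutants, 2.37-fold lower at E17.5 (adjusted p = 9.86e-05), and -1.49 ± 0.15 in WT, 2.81-fold lower (adjusted p = 2.65e-05). It was the only Hox gene past 2-fold with age, and its call held under every alternative run in both genotypes. The WT calls of Hoxa2, Hoxa5, Hoxc9 and Hoxc10 were lost only with the 2-fold threshold of the study's methods. Differences under 2-fold cannot pass that threshold.

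Hoxa10, a gene of the renal stroma and of uterine patterning, had values of 4.78 (not detected), 5.46 and 5.61 in E17.5 mutants, against 6.02, 6.23 and 6.20 in E14.5 mutants. The difference was -0.87 ± 0.18 (adjusted p = 0.00288), with no overlap. It includes the undetected value, and with values under the detection floor set to that floor it was -0.62 (adjusted p = 0.00029). The call was lost with the authors' value table (adjusted p = 0.062). In E17.5 WT its 3 values of 5.40, 5.15 and 5.41 were all not well above background, against 5.84, 5.70 and 5.97 in E14.5 WT. Only a bound holds there, at least 1.26-fold lower at E17.5, and the bound was not tested. The call in WT rests on limma's fitted difference of -0.52 (adjusted p = 0.04), which includes those 3 undetected values. That call was lost when any 1 of 8 of the 12 arrays was left out, with no filter on dim probes (adjusted p = 0.0798) and with the authors' value table (adjusted p = 0.379). The bound sets the mean of the E14.5 WT arrays against the lowest signal of a detected probe on each E17.5 WT array, where that exceeds the gene's own value.

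Hoxa5, which patterns the lung and the anterior trunk, was called in WT, with values of 10.15, 9.64 and 10.64 in E17.5 WT, against 11.01, 10.93 and 10.98 in E14.5 WT. The difference was -0.83 ± 0.20, 1.78-fold lower at E17.5 (adjusted p = 0.00625). In mutants it had 10.33, 10.22 and 10.63 at E17.5, against 10.67, 10.80 and 10.90 at E14.5, a difference of -0.40 with an adjusted p of 0.132. It was called lower in mutants in 4 alternatives (array weights, only the 2 groups compared, and without E17.5 WT replicate 38 or 41), with adjusted p values between 0.0267 and 0.0457. The ages did not overlap in either genotype, and the genotypes' difference in the size of the change, 0.43 (95% interval -0.20 to 1.06), was not called (adjusted p = 0.621).

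Hoxa2, which patterns the hindbrain and second pharyngeal arch, had 7.55, 7.61 and 7.60 in E17.5 mutants, against 8.01, 7.78 and 7.89 in E14.5 mutants (-0.30 ± 0.10, 1.23-fold lower at E17.5, adjusted p = 0.0322). The mutant call was lost with cyclic loess (adjusted p = 0.0719), the mean-variance trend (0.0506) and the authors' value table (0.0543), and when any 1 of 5 arrays was left out. In WT it had 7.16, 7.41 and 7.39 at E17.5, against 7.89, 8.13 and 7.92 at E14.5 (-0.66 ± 0.10, 1.58-fold lower, adjusted p = 0.000394). E17.5 values lay below all E14.5 values in both genotypes. Its second detected probe was also lower, by -0.45 in mutants and -0.57 in WT (limma's adjusted p = 0.0125 and 0.00341 over all 21526 detected probes).

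**Figure D4:**
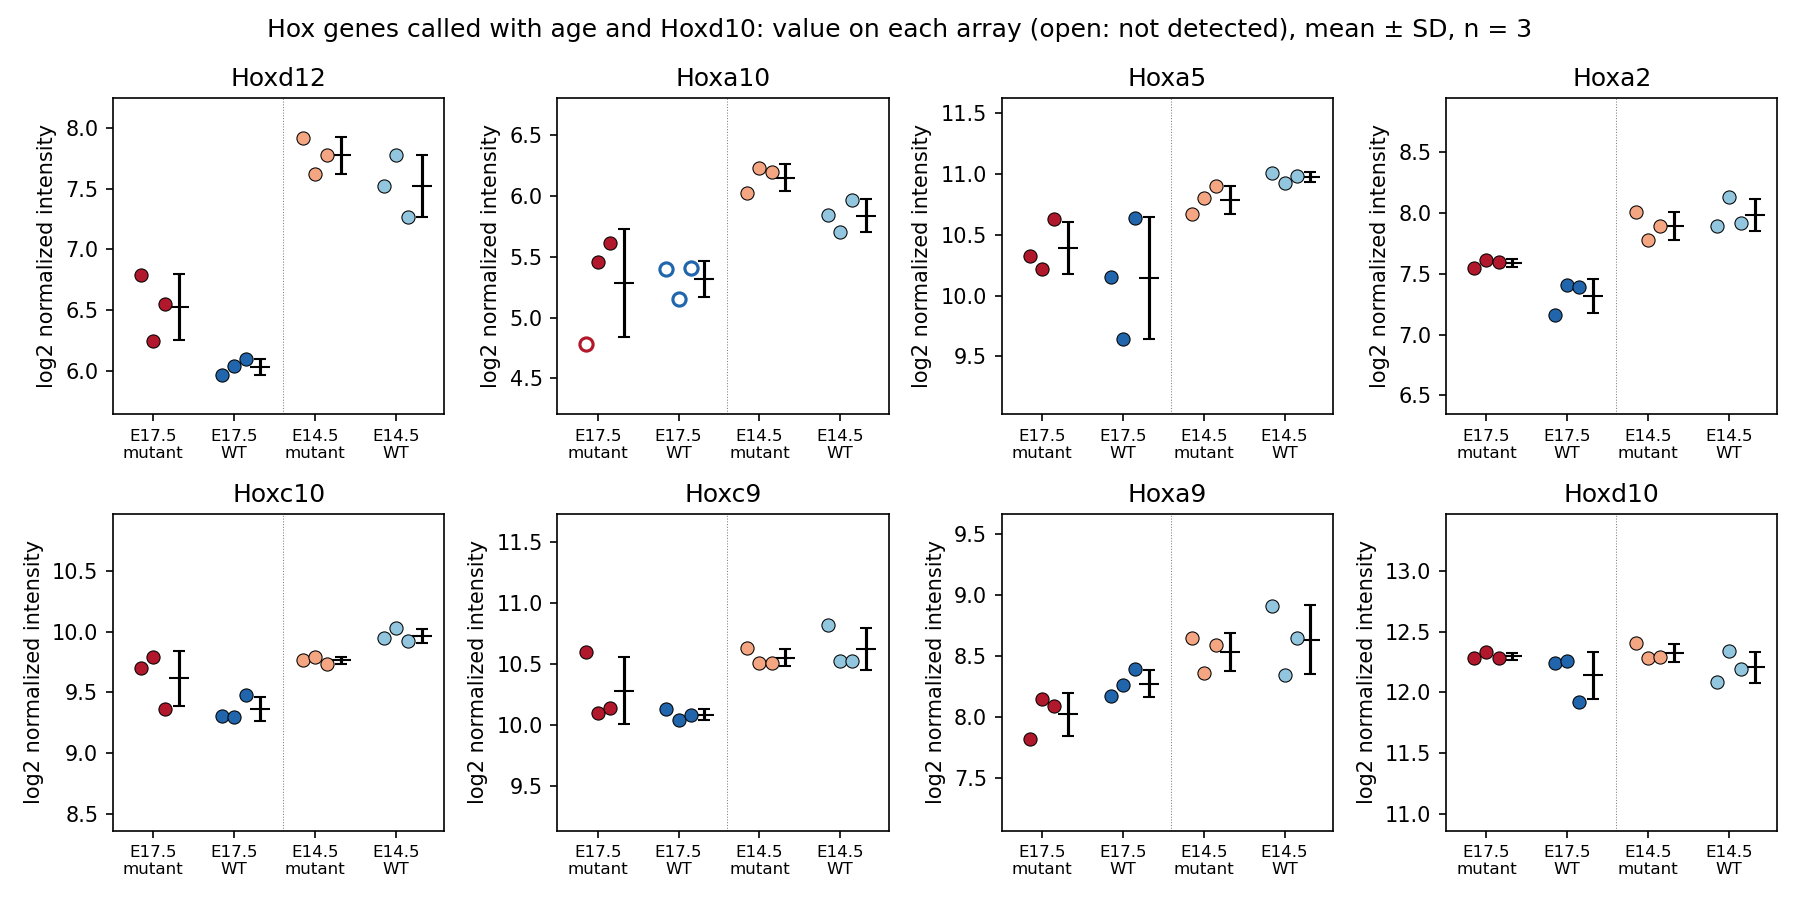
Log2 normalized intensity on each array (points, open where not detected) with the mean ± SD of 3 arrays, for the 7 Hox genes called with age and for Hoxd10, in E17.5 mutants, E17.5 WT, E14.5 mutants and E14.5 WT. Every panel spans the same height on the log2 scale. Hoxd12 lies between 5.97 and 6.79 at E17.5 and between 7.27 and 7.92 at E14.5, and Hoxd10 between 11.92 and 12.41 over all arrays.

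The other calls belonged to paralog groups 9 and 10. Hoxc10, a gene of the lumbosacral trunk and hindlimb, had 9.31, 9.30 and 9.48 in E17.5 WT, against 9.95, 10.03 and 9.92 in E14.5 WT, a difference of -0.61 ± 0.11, 1.52-fold lower at E17.5 (adjusted p = 0.00115). In mutants it had 9.70, 9.79 and 9.36 at E17.5, against 9.77, 9.79 and 9.73 at E14.5, and these values overlapped (-0.14, adjusted p = 0.32). Its second detected probe was lower in WT by -0.46 (adjusted p = 0.00158 over all detected probes).

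Hoxc9, which marks thoracic motor neuron columns in mice, had 10.13, 10.04 and 10.08 in E17.5 WT, against 10.82, 10.52 and 10.52 in E14.5 WT, a difference of -0.54 ± 0.13, 1.45-fold lower at E17.5 (adjusted p = 0.00707). In mutants it had 10.60, 10.10 and 10.14 at E17.5, against 10.63, 10.51 and 10.51 at E14.5, with 1 E17.5 array, replicate 12, level with the earlier age (-0.27, adjusted p = 0.132). Without that array Hoxc9 was called in mutants too (-0.43, adjusted p = 0.0099).

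Hoxa9, a gene of blood progenitors and of posterior patterning, was called in mutants, with 7.82, 8.15 and 8.09 at E17.5, against 8.65, 8.36 and 8.59 at E14.5 (-0.51 ± 0.15, 1.43-fold lower, adjusted p = 0.0153), a call lost when any 1 of 3 arrays was left out. In WT it had 8.17, 8.26 and 8.39 at E17.5, against 8.91, 8.34 and 8.65 at E14.5, a difference of -0.36 with overlapping ages (adjusted p = 0.0652). Its second detected probe was lower in mutants by -0.61 (adjusted p = 0.00552 over all detected probes) and gave -0.10 in WT (adjusted p = 0.624). Hoxd4, outside the calls (-0.30 in WT, adjusted p = 0.0551), was called lower in WT in 7 alternatives. For none of the 7 called genes was the change with age called different between mutants and WT.

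The age differences in mutants and WT came from different arrays, but the tests shared the spread of each gene over all 12 arrays. Hoxa10 in WT lost its call without E14.5 mutant replicate 59 or 65 (adjusted p = 0.0507 and 0.052). The calls in mutants and in WT are therefore not independent. Hoxd12, Hoxa10 and Hoxa2 were called lower in both, which is 75% of the mutant list and 50% of the WT list, against 74.3% and 73.4% for calls of all features in the same direction. Hoxa10 counts here although it passed the filter mainly through E14.5 and was not detected on any E17.5 WT array. With detection required on all 12 arrays, Hoxd12 and Hoxa2 were the genes called lower in both. Of the 26 genes, 19 (73.1%) had the same sign of difference in the 2 genotypes, against 82.2% of all features.

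By cluster, the calls lay in Hoxa (3 of 9 in mutants and 3 of 9 in WT), Hoxc (0 of 4 and 2 of 4) and Hoxd (1 of 6 and 1 of 6). Over all features 43.1% were called in mutants and 43.6% in WT. No gene of the Hoxb cluster was called in either genotype, where 7 were tested. The Hoxb genes ran from -0.41 to 0.29 with age in mutants and from -0.32 to 0.19 in WT, and none of the 7 had non-overlapping ages, against 56.1% of all features in mutants and 53% in WT. No difference between clusters was tested. Hoxb7, the ureteric bud gene, had 12.47, 12.39 and 12.34 in E17.5 mutants, against 12.48, 12.51 and 12.40 in E14.5 mutants, and 12.35, 12.37 and 12.49 in E17.5 WT, against 12.44, 12.12 and 12.30 in E14.5 WT. Its differences with age, -0.06 in mutants (95% interval -0.27 to 0.15) and 0.12 in WT (-0.09 to 0.33), were within the spread of the arrays. The second detected probe of Hoxb7 gave -0.02 in mutants and -0.26 in WT, the latter of opposite sign (limma's adjusted p = 0.87 and 0.0553 over all detected probes).

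By paralog number, calls with age fell at 2 (Hoxa2), 5 (Hoxa5), 9 (Hoxa9 and Hoxc9), 10 (Hoxa10 and Hoxc10) and 12 (Hoxd12). Numbers 9 to 13 held 3 of 10 tested genes called in mutants and 4 of 10 in WT, numbers 5 to 8 held 0 of 7 and 1 of 7, and numbers 2 to 4 held 1 of 9 in each, beside the same shares of 43.1% and 43.6% over all features. Paralogs of the same number did not share a call across all their clusters. In group 9, Hoxb9 gave -0.20 in mutants and 0.19 in WT and Hoxd9 gave 0.26 and 0.17, with none called. In group 2, Hoxb2 gave -0.34 in mutants and -0.24 in WT with overlapping ages, beside the calls for Hoxa2. In group 5, Hoxb5 gave 0.29 and 0.04, of the opposite sign to Hoxa5.

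In group 10, Hoxd10, a gene of the lumbosacral trunk and stroma, had 12.28, 12.33 and 12.28 in E17.5 mutants, against 12.41, 12.28 and 12.29 in E14.5 mutants, and 12.24, 12.26 and 11.92 in E17.5 WT, against 12.09, 12.34 and 12.19 in E14.5 WT. Its difference was -0.03 in mutants (95% interval -0.27 to 0.20) and -0.07 in WT (-0.30 to 0.17), while Hoxa10 and Hoxc10 were called lower in WT. Whether the change of Hoxd10 differed from that of Hoxa10, Hoxc10 or Hoxd12 was not tested, since each probe has its own response.

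Hoxa11, the detected gene of the Hox11 group, was close to level across the 4 groups. It had 8.48, 8.29 and 8.43 in E17.5 mutants, against 8.28, 8.26 and 8.49 in E14.5 mutants, and 8.56, 8.35 and 7.96 in E17.5 WT, against 8.22, 8.39 and 8.11 in E14.5 WT. The groups overlapped in each comparison. The age difference was 0.06 in mutants (95% interval -0.26 to 0.37) and 0.05 in WT (-0.27 to 0.36), and the genotype difference was 0.11 at E17.5 (-0.20 to 0.43) and 0.10 at E14.5 (-0.21 to 0.42).

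Probes of 1 gene did not always run together. Of the 6 genes with 2 or more detected probes, Hoxb3, a hindbrain and pharyngeal gene, had 4, whose differences between mutants and WT at E17.5 were -0.14, 0.57, -0.12 and -0.28. The second of these had a mean of 7.06 ± 0.17 in E17.5 mutants and 6.49 ± 0.24 in E17.5 WT (SD, n = 3 each; adjusted p = 0.0847 over all detected probes), the other 3 having the opposite sign. The 2 detected Hoxb7 probes gave 0.00 and 0.29 at E17.5 (adjusted p = 0.988 and 0.149 over all detected probes). The brightest probe stands for the gene in each count, and testing every detected probe alone added no Hox gene to the calls of any comparison.

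Genes that act with Hox proteins or on the clusters were also called with age, and none of those tested was called with genotype at either age. Over all features, 21.7% were called higher and 21.4% lower at E17.5 in mutants and 20.2% higher and 23.5% lower in WT, and the counts below stand beside these shares. Of 7 tested TALE partners, 4 were called lower at E17.5 in mutants and 6 in WT, with medians of -0.39 and -0.50, against -0.02 and -0.05 over all features. Pbx3 fell by 0.92 in mutants and by 0.77 in WT, Meis2 by 0.56 and 0.67, and Meis1, a stromal cofactor, by 0.39 and 0.65. Of 4 tested partners and targets of Hox11 proteins, 3 were lower in each genotype, Eya1 (-1.15 in mutants and -1.28 in WT), Six2 (-1.13 and -1.10) and Gdnf (-0.43 and -0.51), while Itga8 was not called.

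Of 6 tested activators of the clusters, 1 was higher and 2 were lower in mutants, and 2 were lower in WT. Rarb, a retinoic acid receptor, gave -0.89 in mutants and -0.52 in WT, Aldh1a2, which makes retinoic acid, gave -0.45 and -0.61, and Rarg was the gene called higher in mutants (0.33, adjusted p = 0.0418). Of 13 tested Polycomb genes, 1 was higher and 3 were lower in mutants, and 1 was higher and 4 were lower in WT, with medians of -0.11 and -0.23. Ezh2, the methyltransferase, gave -1.18 in mutants and -1.01 in WT, and Bmi1 gave -1.34 and -1.03. Cbx7 was higher at E17.5, by at least 1.88-fold in mutants and at least 1.57-fold in WT, being not well above background at E14.5.

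The make-up of the kidney also differed with age, and in bulk RNA fewer cells of a type and less RNA per cell cannot be told apart. The 7 cap mesenchyme markers include Six2, Eya1 and Gdnf, already counted above among the Hox11 partners and targets. Of the 7 markers, 7 were called lower at E17.5 in mutants and 6 in WT, against 21.4% and 23.5% of all features. Their mean log2 intensity lay between 7.92 and 8.33 in E17.5 mutants, against 8.93 to 9.13 in E14.5 mutants, and between 8.15 and 8.27 in E17.5 WT, against 9.02 to 9.09 in E14.5 WT. Of 6 stromal markers, which include the TALE partner Meis1, 2 were higher and 2 lower in mutants and 1 higher and 2 lower in WT. Of 8 tested ureteric and collecting duct markers, 6 were higher at E17.5 in each genotype (mean 9.04 to 9.28 in E17.5 mutants, against 7.90 to 8.0 in E14.5 mutants, and 9.14 to 9.40 in E17.5 WT, against 7.66 to 8.12 in E14.5 WT), against 21.7% and 20.2% of all features. Nephron and blood markers shifted as well. Proximal tubule markers (4 of 5 tested higher in mutants and 5 of 5 in WT) had median differences of 2.98 in mutants and 3.80 in WT, loop of Henle markers (2 of 2 higher in each) 3.09 and 4.26, and podocyte markers (2 of 2 tested higher in each) 0.97 and 1.19. The mean of the proximal tubule markers was 9.21 to 9.78 in E17.5 mutants, against 7.02 to 7.18 in E14.5 mutants, and 11.18 to 11.62 in E17.5 WT, against 6.44 to 7.85 in E14.5 WT. Among these Kap and Miox, and among the duct markers Aqp2, were not well above background on any E14.5 array. They passed the filter through E17.5 alone, and the E14.5 means and the differences include their values under background. Only bounds hold for them, in mutants and in WT at least 1.9-fold and 37-fold higher at E17.5 for Kap and 15.2-fold and 21.7-fold for Aqp2. For Miox the bound was 17.4-fold in WT and 0.951-fold in mutants. Of 3 blood markers, the embryonic globins Hbb-y (-7.02 in mutants and -7.73 in WT) and Hba-x were lower at E17.5 and Hba-a1 was not called. Hba-x gave -4.27 in mutants, with an E17.5 mean of 5.42 near the detection floor. It was not well above background on any E17.5 WT array, so only a bound holds in WT, at least 9.91-fold lower. The mean of the blood markers was 8.74 to 9.39 in E17.5 mutants, against 12.61 to 12.98 in E14.5 mutants, and 8.40 to 8.43 in E17.5 WT, against 11.59 to 12.65 in E14.5 WT. The part of these cell types in the Hox values was not tested.

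Markers listed for tissue outside the kidney were detected in part. Of 6 liver markers, 4 were detected, with a mean of 7.42 to 8.03 in E17.5 mutants, 8.18 to 11.38 in E17.5 WT, 5.75 to 6.38 in E14.5 mutants and 5.57 to 6.82 in E14.5 WT. Alb and Fgb were not detected. Of the 4 tested, 2 were called higher at E17.5 in mutants and 3 in WT, against 21.7% and 20.2% of all features. Serpina1a, among the 4, was not well above background on any E14.5 mutant array. Of 5 skeletal muscle markers, 3 were tested and 2 were lower at E17.5 in mutants, with a mean of 5.09 to 5.54 in E17.5 mutants, against 6.43 to 7.77 in E14.5 mutants. These E17.5 means lay near or under the detection floor of 5.43 to 5.57. Acta1 was not well above background on any E17.5 mutant array, so only a bound holds for it in mutants, at least 2.76-fold lower at E17.5. In WT 0 were called, with a mean of 5.53 to 6.88 in E17.5 WT, against 6.19 to 7.41 in E14.5 WT. Over all features 21.4% were called lower in mutants and 23.5% in WT, and the muscle and neural counts stand beside these shares. Of 4 neural markers, 3 were tested and 1, Elavl4, was lower at E17.5 in each genotype, with a mean of 6.02 to 6.19 in E17.5 mutants, against 6.27 to 6.66 in E14.5 mutants, and of 5.92 to 6.30 in E17.5 WT, against 6.22 to 6.64 in E14.5 WT. Tubb3, also tested, was not well above background on any E14.5 array. Of 6 gonad and adrenal markers, 1 was tested and was not called in any comparison. Star, Cyp17a1, Hsd3b1, Amh and Nr5a1 were not detected. Trunk muscle and spinal cord express Hox genes as well, and the part of such tissue in the Hox values was not tested.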

How the data were processed

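Per the labels, total RNA of embryonic kidney was measured on 12 arrays. The authors extracted bead summary intensities, not normalized, with Illumina BeadStudio, and the deposited file gives for each array an intensity and a detection p-value per probe. A second deposited table holds the authors' intensity values on a linear scale, background subtracted and quantile normalized per the paper's methods, and was used only as an alternative. The submitters' processing notes name limma. All 45281 probes were corrected with limma 3.58.1 in R 4.3.3 (normexp fitted through the detection p-values, offset 16), put on the log2 scale and quantile normalized. Probes with a detection p under 0.05 on 3 or more of 12 arrays were kept (21526), the brightest per symbol stood for a gene, and unnamed probes were kept as themselves. Of all probes, 34885 carried 1 symbol, 18 several and 10378 none. This gave 14882 features. One model of the 4 groups (lmFit, eBayes) tested genotype at each age, age in each genotype and their difference, with Benjamini-Hochberg adjustment over all features, and was checked on simulated data. Intervals are at 95%. The number of arrays limits the precision, and p-values measure the spread between the pairs of kidneys, each of which was analysed on its own.

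Every Hox gene is named with its detection, values on each array are given for each Hox gene called and for Hoxa10, Hoxa11, Hoxb7, Hoxc10 and Hoxd10, and other genes come from lists of TALE partners, Hox11 partners and targets, activators, Polycomb genes and cell type markers. The members and lists were chosen with earlier results of these data known. Counts are given beside the shares of all features, in place of a test of the list. Alternatives changed the background correction, normalization, offset, filter, probe rule, arrays fitted, variance model, array weights, values and thresholds, and left out each array. Setting values under the detection floor to that floor was added after the data were seen.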

Additional observations from a re-analysis of the deposited data

How the results depend on the processing

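The 0 calls for genotype at E14.5 and for the difference of genotype effects between ages held under every alternative run and without any 1 array. For genotype at E17.5 the count of 0 became 4 with array weights (Hoxa3, Hoxa5, Hoxb5 and Hoxc10, all higher in mutants) and ran from 0 to 1 without 1 array, the 1 being Hoxa3 without E17.5 WT replicate 41. The 4 calls with age in mutants became 9 with array weights, 2 with the authors' value table and 1 with the fold of 2 that the methods ask for. Without 1 array they ran from 2 to 5, with 2 left (Hoxa10 and Hoxd12) without E14.5 mutant replicate 35 or 65. The 6 calls with age in WT became 12 with array weights and 1 with the methods' fold of 2, and ran from 5 to 8 without 1 array. Over all 14882 features array weights called 2081 for genotype at E17.5, against 471. With age they called 8526 in mutants, against 6409, and 8873 in WT, against 6494. The methods' fold of 2 left 1292 features in mutants and 1306 in WT, and the authors' value table called 6017 of 14778 in mutants. Without E14.5 mutant replicate 35 or 65, 5740 and 5068 features were called with age in mutants. The fold of 2 left Hoxd12 in each genotype by its own construction, and for the others the cause was not tested. Requiring detection on all 12 arrays left 23 Hox genes and no filter took 38, within 1.5 times of 26.

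Setting values under the detection floor to that floor, an alternative chosen after seeing the data, changed no Hox call. No call for a named gene turned its direction. Hoxd12 kept its call in both genotypes (-1.0 to -1.41 in mutants and -1.14 to -1.82 in WT over the settings that left out no array). Hoxa10 lost its calls with the authors' value table (-2.16 in mutants and -0.96 in WT, adjusted p = 0.062 and 0.379), and in WT with no filter (0.0798). Hoxa2 in mutants lost its call with cyclic loess, the mean-variance trend and the authors' value table. Hoxa10 in WT lost its call when any 1 of 8 of the 12 arrays was left out (adjusted p up to 0.128), Hoxa2 in mutants for any 1 of 5 (up to 0.114) and Hoxa9 in mutants for any 1 of 3 (up to 0.0594). Besides cyclic loess, Hox genes were called higher at E17.5 with array weights (2 in each genotype), and in WT with the mean-variance trend (Hoxd8) and with no filter (Hoxb13 and Hoxc13, which were detected on 0 arrays). The same held for Hoxd9 in mutants without E14.5 mutant replicate 59 (0.39) and for Hoxd8 in WT without E17.5 mutant replicate 12 (0.31) or E17.5 WT replicate 41 (0.40). Fits on only the 2 groups compared could not be made for the difference between ages. The BeadChip was not fitted as a block, since the file headers name none. No paired analysis was possible because the groups share no replicate numbers in the labels.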
